A study of Mus musculus with 3 samples.

Results

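A T cell receptor (TCR) α chain is built by joining 1 V segment to 1 J segment, and its most variable stretch, the complementarity-determining region CDR3α, spans that joint. Here 159 CDR3α amino acid sequences are described that recurred among conventional CD4 single-positive (CD4 SP) thymocytes and were not seen in any thymic regulatory T cell (Treg) with a single productive α chain. The members were chosen by their cell counts: a sequence was taken when at least 2 CD4 SP cells carried it and no CD73- Treg and no CD73+ Treg did, counting cells with exactly 1 productive α chain. The 159 were 70.0% of the 227 CDR3α found in 2 or more CD4 SP cells, of 937 found in any CD4 SP cell and 3237 in the whole series. The remaining 68 of the 227 also occurred in a Treg and are called shared CDR3α below. These counts chose the sequences and are given as a description.

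The cells were thymocytes pooled from 8 female mice aged 7 to 12 weeks, labelled as strain C56Bl/6 with the TCliβ transgene, TCRα+/- and Foxp3-GFP, all of which every group shared. TCliβ supplies a fixed TCR β chain, TCRα+/- leaves 1 working α allele, and Foxp3-GFP reports the transcription factor that defines Tregs. All cells were sorted for surface Vα2, the product of the TRAV14 genes, and thymus was depleted of CD8+ cells except for the CD4+CD8+ sort. Each of 6 sorted populations had its own hashtag: CD4 SP cells (CD73-, CD25-, Foxp3-), mature Tregs without CD73 (CD73- Treg) or with it (CD73+ Treg), Treg progenitors with CD25 (CD25+ TRP) or with low Foxp3 (Foxp3lo TRP), and CD4+CD8+ double-positive (DP) cells. There was 1 pool of mice and 1 sorted sample per population, with no label that ties a cell to a mouse, so the comparisons below have no replicate and no test. Shares carry exact Clopper-Pearson 95% intervals, which cover counting error alone and treat sister cells of a clone as separate. The rows of the expression matrix as used here carry no gene names, so the sorted identities were not checked by marker expression.

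With the β chain fixed, the receptors of these mice differ mostly in CDR3α, the part of the chain that contacts the presented peptide most closely. Developing DP cells join TRAV to TRAJ segments in successive rounds, which begin at the TRAJ segments of high number next to the V genes and move toward the constant gene. Cells then pass to the CD4 SP stage after selection on self peptides, and part of the CD4 SP cells are diverted to the Treg lineage through CD25+ or Foxp3lo progenitors. Bases of the germline segments can be trimmed and other bases added at the joint, so that 1 amino acid sequence can arise from several DNA sequences.

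Members are ranked by their number of CD4 SP cells. The joints below, of sequences on mouse chromosome 14, show how the leading members were encoded and how close they lie to sequences seen in Tregs. Each line gives the CDR3 coding sequence, 5′ to 3′, from the conserved cysteine to the last J residue of the CDR3. Bases in capitals match neither the germline end of the assigned TRAV14 copy nor the germline start of the TRAJ segment.
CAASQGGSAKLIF, member, TRAJ57, in 27 CD4 SP cells with TRAV14-3: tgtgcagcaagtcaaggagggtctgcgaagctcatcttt
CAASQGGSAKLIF, a further joint, in 1 CD4 SP cell: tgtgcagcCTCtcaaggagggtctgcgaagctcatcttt
TRAJ32 member of rank 2, in 6 CD4 SP cells with TRAV14-2: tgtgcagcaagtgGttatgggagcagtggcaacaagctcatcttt
TRAJ32 member of rank 2, a further joint, in 6 CD4 SP cells with TRAV14-2: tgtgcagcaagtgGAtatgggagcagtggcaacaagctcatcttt
TRAJ32 neighbour shared with Tregs: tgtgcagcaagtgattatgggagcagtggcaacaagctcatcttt
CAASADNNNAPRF, member, TRAJ43, in 8 CD4 SP cells with TRAV14-2: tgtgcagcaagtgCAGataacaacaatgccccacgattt
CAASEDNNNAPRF, member, TRAJ43, in 6 CD4 SP cells with TRAV14-2: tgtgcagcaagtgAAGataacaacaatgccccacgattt
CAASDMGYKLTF, member, TRAJ9, in 7 CD4 SP cells with TRAV14N-2: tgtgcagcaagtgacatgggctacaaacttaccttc
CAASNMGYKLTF, shared with Tregs, TRAJ9: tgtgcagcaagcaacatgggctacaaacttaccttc
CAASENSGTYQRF, member, TRAJ13, in 2 CD4 SP cells with TRAV14D-3-DV8: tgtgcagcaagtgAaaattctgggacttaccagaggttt
TRAJ13 neighbour shared with Tregs: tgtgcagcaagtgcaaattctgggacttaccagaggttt

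The absence from Tregs rests on 1280 Treg cells with exactly 1 productive α chain, 223 CD73- and 1057 CD73+. A count of 0 among them allows a share of up to 0.234%, taken as 3 cells. For the 223 CD73- Tregs alone it allows up to 1.35%, and for the 1057 CD73+ Tregs alone up to 0.284%. The cells searched for members were 1849 CD4 SP, 1783 CD25+ TRP, 804 Foxp3lo TRP and 1266 DP. CD4 SP cells with a member had a median of 19 unique molecular identifiers (UMIs) on their α contig, the same as cells with a shared CDR3α. Median RNA UMIs were 2903 in CD4 SP cells with a member and 2666 in those with a shared CDR3α. Most members were small. Of the 159, 84 were in 2 CD4 SP cells, 32 in 3, 19 in 4 and 24 in 5 or more. Only the 24 had a share of CD4 SP cells above 0.234%. The interval of that share lay wholly above 0.234% for the 10 members in 10 or more CD4 SP cells. For the other 135 the Treg sample was too small to tell absence from a share as high as theirs in CD4 SP. Members in 5 to 8 CD4 SP cells had lower limits of 0.0879% to 0.187%, so for them absence is not clearly told from an equal share either. No member had an interval wholly above the 1.35% of CD73- Tregs alone. Absence from CD73- Tregs is thus not told from an equal share for any member. Members in 10 CD4 SP cells had a lower limit of 0.260%, below the 0.284% of CD73+ Tregs alone. Just outside the rule lay 641 CDR3α in 1 CD4 SP cell and no Treg, and 33 shared CDR3α with exactly 1 Treg cell, which were in 2 to 24 CD4 SP cells (median 5).

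Together the members were carried by 583 of 1849 CD4 SP cells, or 31.5% (29.4 to 33.7). Shared CDR3α were carried by 556 CD4 SP cells, or 30.1% (28.0 to 32.2). The 10 members in 10 or more CD4 SP cells held 160 of the 583 cells, or 27.4%. The median member was in 2 CD4 SP cells and the largest in 33, while the median shared CDR3α was in 5 and the largest in 113.

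The most frequent member, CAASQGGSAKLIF on TRAJ57, was in 33 CD4 SP, 13 CD25+ TRP, 3 Foxp3lo TRP and 3 DP cells. That is 1.78% of CD4 SP cells (1.23 to 2.5), well above the 0.234% that the count of all Tregs together allows. The interval takes in the 1.35% that the count of CD73- Tregs alone allows. Its main joint, printed first above, used the TRAV14-3 end directly against TRAJ57 with no inserted base, and 27 of the 33 CD4 SP cells had it with TRAV14-3. In all cells it had 9 rearrangements, counted as different combinations of V gene, J gene and CDR3 nucleotide sequence, with 6 different nucleotide sequences. Of its 33 CD4 SP cells 7 lay in cluster 11, a cluster with a median of 6079 RNA UMIs.

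The member of rank 2, a CDR3α of 15 residues on TRAJ32, was in 26 CD4 SP, 7 CD25+ TRP, 2 Foxp3lo TRP and 1 DP cell. It had 10 rearrangements in CD4 SP cells, built from 5 nucleotide sequences, so no single joint made up most of it. Each of the 3 commonest of its joints with TRAV14-2 was in 5 or 6 CD4 SP cells.

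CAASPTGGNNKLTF on TRAJ56 was in 17 CD4 SP, 11 CD25+ TRP, 10 Foxp3lo TRP and 3 DP cells. Those 10 cells were the most that any member had in Foxp3lo TRP. It was the 1 member on TRAJ56, and 12 of its CD4 SP cells shared a single joint with TRAV14-3.

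Ranks 4 and 5 were closely related TRAJ43 members. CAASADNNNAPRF was in 17 CD4 SP, 8 CD25+ TRP, 2 Foxp3lo TRP and 2 DP cells, and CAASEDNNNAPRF in 13 CD4 SP, 10 CD25+ TRP, 1 Foxp3lo TRP and 0 DP cells. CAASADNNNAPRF had 6 rearrangements in CD4 SP cells, with 3 nucleotide sequences, and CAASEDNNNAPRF had 4, with 2. In each of them the germline end of the assigned TRAV14 copy was kept whole and 3 bases were inserted.

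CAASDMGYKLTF on TRAJ9 was in 13 CD4 SP, 9 CD25+ TRP, 1 Foxp3lo TRP and 0 DP cells. In its 13 CD4 SP cells it had 1 nucleotide sequence, which is germline throughout, assigned to 3 different TRAV14 copies. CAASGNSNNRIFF on TRAJ31 was in 11, 5, 4 and 3 cells of the same populations.

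The members of ranks 8 to 10 were each in 10 CD4 SP cells and in no Foxp3lo TRP cell. CAADYSNNRLTL on TRAJ7 was in 3 CD25+ TRP and 3 DP cells, that of rank 9, of 15 residues on TRAJ5, in 2 CD25+ TRP and 1 DP cell, and that of rank 10, of 15 residues on TRAJ37, in 2 CD25+ TRP and 0 DP cells. A count of 0 in Foxp3lo TRP allows a share of up to 0.373%. Each of these was 0.541% of CD4 SP cells (0.260 to 0.992), an interval that takes 0.373% in, so a lower share in Foxp3lo TRP is not shown.

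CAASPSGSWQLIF (TRAJ22) was in 8 CD4 SP cells and in 1 cell of each of the other 3 populations. The member of rank 12 (TRAJ12), in 7 CD4 SP, 6 CD25+ TRP, 2 Foxp3lo TRP and 3 DP cells, had 11 rearrangements with 7 nucleotide sequences in its 18 cells. That of rank 13, of 15 residues on TRAJ32, was in 7 CD4 SP and 3 CD25+ TRP cells, and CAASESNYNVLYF (TRAJ21) in 7 CD4 SP, 2 CD25+ TRP and 1 DP cell. One member of 5 or more CD4 SP cells was absent from both progenitor populations, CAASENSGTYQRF on TRAJ13, which was in 5 CD4 SP cells and in no cell of the other 3 populations.

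**Figure D1:**
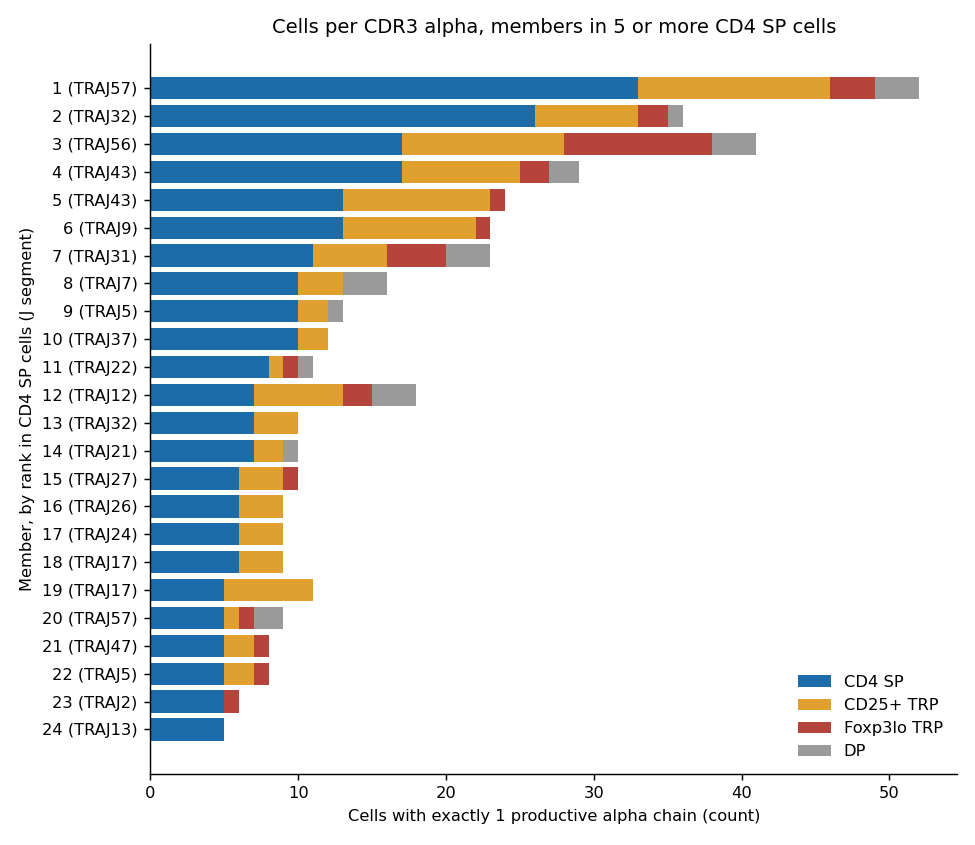
Cells that carry each of the 24 members found in 5 or more CD4 SP cells (x axis, number of cells), stacked by sorted population and ordered by rank in CD4 SP cells, with the J segment in brackets. CD4 SP cells make up the largest piece of every bar but that of rank 19, where 6 CD25+ TRP cells stand against 5 CD4 SP cells, and the Foxp3lo TRP piece is widest for rank 3, with 10 cells.

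Outside CD4 SP the most members were found in CD25+ TRP, which also had the most cells searched. These were 1783 cells, against 1266 DP and 804 Foxp3lo TRP cells. Of the 159, 89 were also in CD25+ TRP, or 56.0% (47.9 to 63.8), against 64 of 68 shared CDR3α, or 94.1% (85.6 to 98.4), and 67.4% of all 227. In Foxp3lo TRP 47 members were found, or 29.6% (22.6 to 37.3), against 46 shared CDR3α, or 67.6% (55.2 to 78.5), and 41.0% of all 227. In DP cells 44 members were found, or 27.7% (20.9 to 35.3), against 34 shared CDR3α, or 50% (37.6 to 62.4), and 34.4% of all 227. No member was in a Treg by the rule, and 47 of 159 were in none of these other 3 populations, while 14 were in all 3. Those in a single further population were 38 in CD25+ TRP, 10 in Foxp3lo TRP and 10 in DP.

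Shared CDR3α were more frequent in CD4 SP than members, so the 2 sets were also compared at equal numbers of CD4 SP cells. At 2 CD4 SP cells each, 34 of 84 members were in CD25+ TRP, or 40.5% (29.9 to 51.7), against 16 of 17 shared CDR3α, or 94.1% (71.3 to 99.9). At 3 cells the counts were 18 of 32 members and 6 of 6 shared CDR3α, and at 4 cells 15 of 19 and 8 of 9. From 5 to 9 cells they were 12 of 14 members and 21 of 23 shared CDR3α, and at 10 or more every member (10 of 10) and every shared CDR3α (13 of 13) was in CD25+ TRP. In CD25+ TRP the gap was thus widest among sequences in 2 CD4 SP cells. In Foxp3lo TRP, at 2 CD4 SP cells, 20 of 84 members were found, or 23.8% (15.2 to 34.3), against 8 of 17 shared CDR3α, or 47.1% (23.0 to 72.2), with intervals that overlap. In DP the same class gave 20 of 84 members and 9 of 17 shared CDR3α. The rule itself selects shared CDR3α for cells outside CD4 SP, and how far this sets the gap was not tested.

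**Figure D2:**
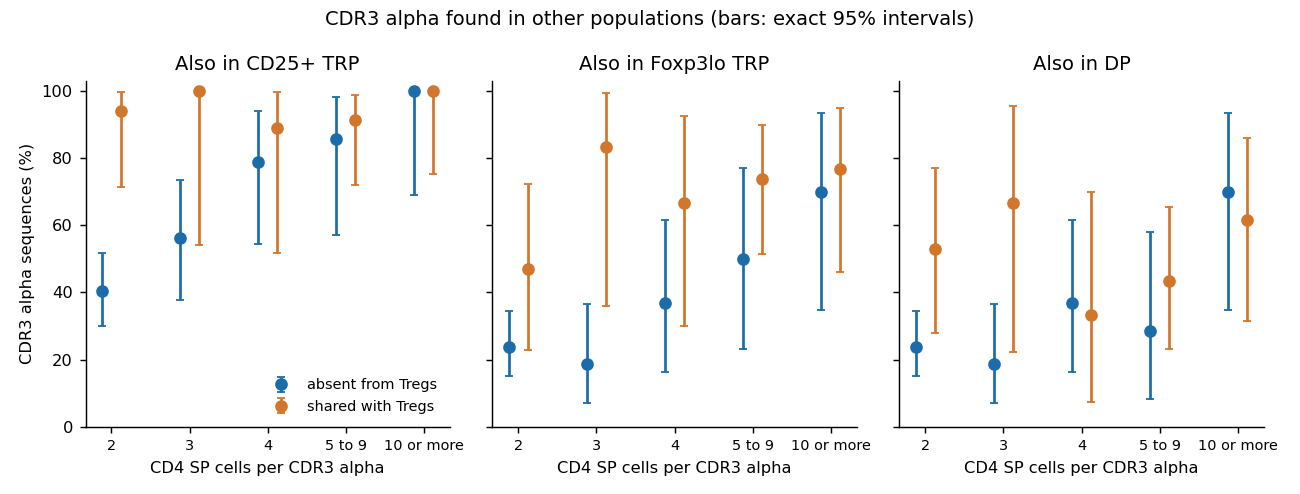
Share of CDR3α sequences also found in CD25+ TRP, Foxp3lo TRP and DP (y axis, %) by the number of CD4 SP cells that carry them (x axis), for members (blue) and for sequences shared with Tregs (orange), with exact 95% intervals. At 2 CD4 SP cells the CD25+ TRP points stand at 40.5% for members and 94.1% for shared sequences, and at 10 or more both are at 100%.

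By cells, members were carried by 226 of 1783 CD25+ TRP cells, or 12.7% (11.2 to 14.3), 76 of 804 Foxp3lo TRP cells, or 9.45% (7.52 to 11.7), and 73 of 1266 DP cells, or 5.77% (4.55 to 7.20). Shared CDR3α were carried by 24.5% (22.5 to 26.6) of CD25+ TRP, 27.4% (24.3 to 30.6) of Foxp3lo TRP and 6.16% (4.90 to 7.63) of DP cells. Members and shared CDR3α thus had similar shares of CD4 SP and of DP cells, with overlapping intervals, and members had the smaller share of both progenitor populations. Few members had more cells in another population than in CD4 SP. This was so for 15 members, of which 9 had more in CD25+ TRP, 3 in Foxp3lo TRP and 4 in DP. An example is a member of 13 residues on TRAJ13 (rank 76), in 2 CD4 SP and 6 CD25+ TRP cells. Another is a member of 14 residues on TRAJ30 (rank 77), in 2 CD4 SP, 3 CD25+ TRP, 1 Foxp3lo TRP and 4 DP cells, with 9 rearrangements in those 10 cells.

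The same amino acid sequence in different populations was often, but not always, the same joint. A rearrangement was found in both CD4 SP and CD25+ TRP for 62 of the 89 members in CD25+ TRP, in both CD4 SP and Foxp3lo TRP for 23 of 47, and in both CD4 SP and DP for 20 of 44. These counts include the assigned TRAV14 copy, so the same nucleotide sequence with another copy counted as different.

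Cells with 2 or more productive α chains were left out by the rule, and 3 members were present in them on the Treg side. Of 77 such Treg cells, 3 carried a member, or 3.90% (0.811 to 11), against 32 of 88 such CD4 SP cells, or 36.4% (26.4 to 47.3). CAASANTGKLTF was in 1 CD73- Treg with 87 UMIs, against 14 on the other α contig of that cell. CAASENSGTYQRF was in 1 CD73- Treg with 5 UMIs against 24 on the other contig, and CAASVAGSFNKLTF in 1 CD73+ Treg with 7 against 26. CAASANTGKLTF and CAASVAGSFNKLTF were named after their values were seen. TCRα+/- leaves 1 working α allele, so 2 productive α contigs may not both belong to 1 cell. Whether these 3 Tregs themselves carried the member chain was not tested.

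Every member used a V gene of the TRAV14 family, as the Vα2 sort requires. In GRCm38 the copies that members used lie on the plus strand of chromosome 14, from TRAV14D-2 (52948568 to 52949169) to TRAV14-3 (53763173 to 53763694). Each of these copies is annotated as a TCR V gene. By sequence, 53 members used TRAV14D-3-DV8, 37 TRAV14-1, 37 TRAV14-2, 36 TRAV14N-1 and 26 TRAV14N-3, and 1 member could use several. By cells, TRAV14-2 was in 17.7% (14.7 to 21) of CD4 SP cells with a member and in 5.22% (3.52 to 7.41) of those with a shared CDR3α. By sequence the shares were 23.3% (16.9 to 30.6) of members and 22.1% (12.9 to 33.8) of shared CDR3α, so the difference was one of cells and not of how many sequences used the copy. TRAV14-3 was in 12.3% (9.79 to 15.3) of member cells and 2.52% (1.38 to 4.19) of shared cells, and TRAV14N-2 in 8.06% (5.98 to 10.6) of member cells and 23.2% (19.8 to 26.9) of shared cells. By sequence TRAV14-3 was used by 15 members, or 9.43% (5.38 to 15.1), and 7 shared CDR3α, or 10.3% (4.24 to 20.1), and 2 joints named above made up 27 and 12 of its 72 member cells. For TRAV14N-2 the shares by sequence were 12.6% (7.86 to 18.8) of members and 22.1% (12.9 to 33.8) of shared CDR3α. The copies are nearly identical, so their assignment is uncertain.

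Members used TRAJ segments along the whole locus, with more of the V-proximal ones than shared CDR3α had. Segments numbered 40 or higher were used by 34 of 159 members, or 21.4% (15.3 to 28.6), and by 4 of 68 shared CDR3α, or 5.88% (1.63 to 14.4). All 227 stood at 16.7% (12.1 to 22.2), and CDR3α in 1 CD4 SP cell and no Treg at 22.2% (19 to 25.6). By CD4 SP cells the shares were 27.8% (24.2 to 31.6) for members and 3.06% (1.79 to 4.85) for shared CDR3α. Much of the member share came from few sequences, since ranks 1, 3, 4 and 5 held 33, 17, 17 and 13 of the 162 cells. Among sequences in 2 to 9 CD4 SP cells, 30 of 149 members, or 20.1% (14 to 27.5), and 4 of 55 shared CDR3α, or 7.27% (2.02 to 17.6), used these segments, and there the intervals overlap.

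The J segments of most members were TRAJ17 and TRAJ43 with 10 each, TRAJ5 with 9, TRAJ23, TRAJ31, TRAJ32 and TRAJ39 with 8 each, and TRAJ12 and TRAJ30 with 7 each. TRAJ43 lies at 54174742 to 54174798 and TRAJ57 at 54158505 to 54158569 on the plus strand of chromosome 14, each annotated as a TCR J gene. All 10 CDR3α on TRAJ43 in 2 or more CD4 SP cells were members, in 51 CD4 SP and 29 CD25+ TRP cells, against 0 of 68 shared CDR3α, which allows a share of up to 4.41%. Of the 227 on any segment 70.0% were members, and the interval of 10 of 10 on TRAJ43, 69.2% to 100%, takes that share in. TRAJ21 gave 6 members and no shared CDR3α, with an interval of 54.1% to 100% that does so too. TRAJ57 gave 5 members and 1 shared CDR3α, and 4 of the 5 members end in NQGGSAKLIF and differ in the residue before it.

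Other segments were rarer among members. TRAJ26 was used by 3 members, or 1.89% (0.391 to 5.41), and by 9 shared CDR3α, or 13.2% (6.23 to 23.6). TRAJ13 was used by 4 members, or 2.52% (0.690 to 6.32), and by 8 shared CDR3α, or 11.8% (5.22 to 21.9). TRAJ23 gave 8 members and 10 shared CDR3α, TRAJ15 gave 5 and 6, and TRAJ4 gave 5 and 5. With few sequences on each segment, only TRAJ26 among these had intervals that did not overlap.

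**Figure D3:**
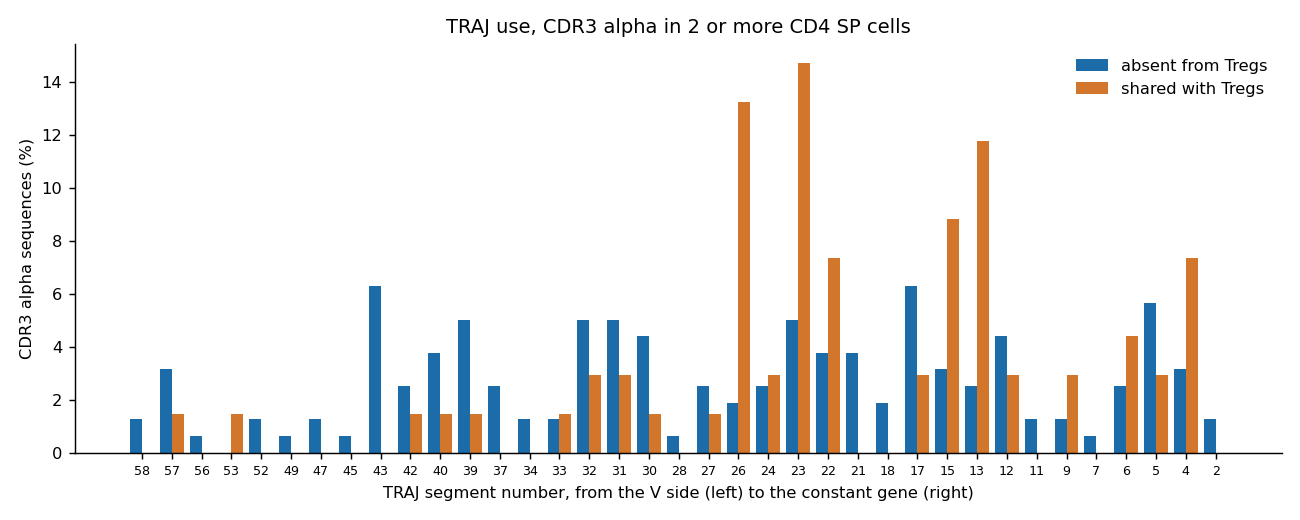
Share of CDR3α sequences in 2 or more CD4 SP cells that use each TRAJ segment (y axis, %), in locus order from the V side to the constant gene (x axis, segment number), for members (blue) and for sequences shared with Tregs (orange). TRAJ43, with 10 members, is the tallest blue bar without an orange one beside it, and the tallest orange bars are TRAJ23, TRAJ26 and TRAJ13.

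CDR3α length ran from 10 to 16 residues among members, with 61 members at 14 residues and 44 at 13. Lengths of 15 or more were found in 26 members, or 16.4% (11 to 23.0), and in 3 shared CDR3α, or 4.41% (0.919 to 12.4), with intervals that overlap slightly. Of all 227, 12.8% (8.73 to 17.8) had such a length, and of CDR3α in 1 CD4 SP cell and no Treg 22.9% (19.7 to 26.4). Among sequences in 2 to 9 CD4 SP cells the shares were 15.4% (10.0 to 22.3) of members and 5.45% (1.14 to 15.1) of shared CDR3α, which overlap too. By CD4 SP cells the shares were 18.4% (15.3 to 21.7) for members and 2.34% (1.25 to 3.97) for shared CDR3α. The shortest members were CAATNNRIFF and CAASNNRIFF on TRAJ31 and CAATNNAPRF on TRAJ43, with 10 residues and 3, 2 and 2 CD4 SP cells. Of the longest, with 16 residues, 1 on TRAJ2 was in 5 CD4 SP cells, and 1 on TRAJ42 and 1 on TRAJ4 were in 3 each. Members of 15 or more residues include ranks 2, 9 and 10.

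**Figure D4:**
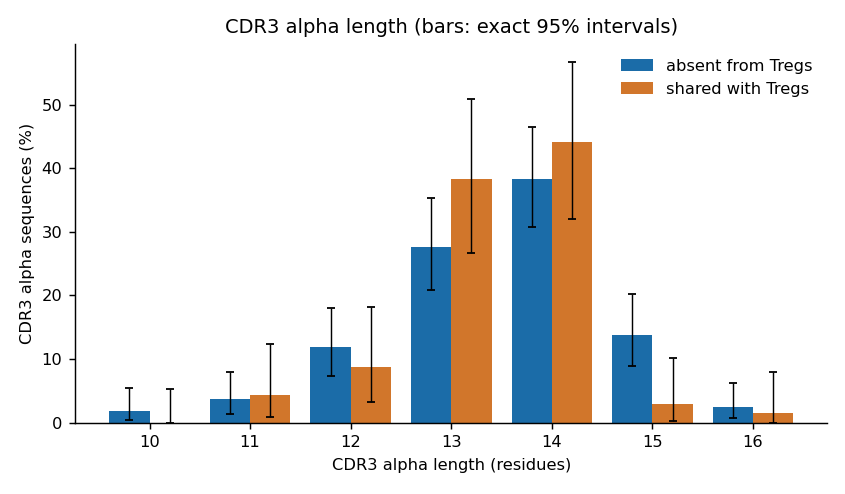
Share of CDR3α sequences in 2 or more CD4 SP cells at each length (y axis, %, with exact 95% intervals), from 10 to 16 residues (x axis), for members (blue) and for sequences shared with Tregs (orange). Both peak at 14 residues, and at 15 residues members stand at 13.8% and shared sequences at 2.94%.

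Most members were encoded by more than 1 rearrangement, the pattern called convergent recombination. The 159 members had 353 rearrangements in CD4 SP cells and 507 in all cells. In CD4 SP cells 122 members, or 76.7% (69.4 to 83.1), had 2 or more, against 63 shared CDR3α, or 92.6% (83.7 to 97.6). By nucleotide sequence alone, which does not depend on the TRAV14 copy, the counts were 105 members, or 66.0% (58.1 to 73.4), and 55 shared CDR3α, or 80.9% (69.5 to 89.4). At 2 CD4 SP cells each, 54 of 84 members, or 64.3% (53.1 to 74.4), and 14 of 17 shared CDR3α, or 82.4% (56.6 to 96.2), had a different rearrangement in each cell. By nucleotide sequence alone these were 45 members, or 53.6% (42.4 to 64.5), and 11 shared CDR3α, or 64.7% (38.3 to 85.8). Counted with the assigned TRAV14 copy, the other 37 of the 159 members had a single rearrangement in CD4 SP cells, as would cells of 1 clone. Such cells cannot be told apart from the same joint made more than once.

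Rearrangements of members held a median of 3 inserted bases, mean 2.52 ± 1.51 (SD, n = 353 rearrangements), where an inserted base is one that matches neither germline end. Those of shared CDR3α held a median of 2, mean 2.09 ± 1.43 (SD, n = 235), and those of CDR3α in 1 CD4 SP cell a median of 4, mean 3.84 ± 2.22 (SD, n = 641). No base was inserted in 38 of 353 member rearrangements, or 10.8% (7.73 to 14.5), in 41 of 235 shared ones, or 17.4% (12.8 to 22.9), and in 5.30% (3.70 to 7.33) of those in 1 CD4 SP cell. Members thus lay between shared CDR3α and those seen once. The printed joints without capitals are of this kind, among them those of the members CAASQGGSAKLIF and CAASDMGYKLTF.

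Many members lay 1 residue from a CDR3α seen in a Treg. For 125 of 159 members, or 78.6% (71.4 to 84.7), a Treg carried a CDR3α of the same J gene and length that differed at 1 position. Of shared CDR3α, 62 of 68, or 91.2% (81.8 to 96.7), had such a neighbour, as did 82.4% (76.8 to 87.1) of all 227 and 54.9% (51 to 58.8) of CDR3α in 1 CD4 SP cell and no Treg. The differing position, counted from 1 at the first cysteine, was 5 for 89 members, 4 for 40 and 6 for 37, which is where V and J meet, and 1 member could have several neighbours. Neighbours had to share J gene and length, and the TRAV14 copies are nearly identical. The definition thus leaves few other positions that could differ.

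The TRAJ32 member of rank 2 and its TRAJ32 neighbour shared with Tregs differ by G5D. The member was in 26 CD4 SP, 7 CD25+ TRP, 2 Foxp3lo TRP and 0 Treg cells, while the neighbour was in 5 CD4 SP cells, 16 CD25+ and 19 Foxp3lo progenitors, and 3 CD73- and 8 CD73+ Tregs. In the joints printed above, the neighbour is germline throughout and the member has 1 or 2 inserted bases in its place. This pair was singled out after its values were seen. The other TRAJ32 neighbour of the member in a Treg, G5A, was in 5 CD4 SP cells, 6 CD25+ and 0 Foxp3lo progenitors, and 0 CD73- and 1 CD73+ Tregs.

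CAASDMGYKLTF and the shared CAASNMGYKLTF differ by D5N. The member was in 13 CD4 SP, 9 CD25+ TRP and 0 Treg cells, and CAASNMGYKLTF in 22 CD4 SP, 11 CD25+ TRP, 1 CD73- Treg and 2 CD73+ Treg cells. Its other Treg neighbours had fewer CD4 SP cells. D5H was in 0 CD4 SP, 5 CD25+ TRP and 3 CD73+ Treg cells, D5Y in 2 CD4 SP, 3 CD25+ TRP and 1 CD73+ Treg cells, and M6W in 1 CD73+ Treg. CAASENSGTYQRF differs by E5A from the TRAJ13 neighbour printed with it, the most frequent CDR3α of CD4 SP, which was in 113 CD4 SP cells, 60 CD25+ and 38 Foxp3lo progenitors, and 1 CD73- and 4 CD73+ Tregs. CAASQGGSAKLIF had 4 Treg neighbours, S4C, Q5A, Q5P and Q5R, each in 1 CD73+ Treg and none in a CD4 SP cell.

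For the residues at the joint, the intervals of members and shared CDR3α overlapped in each of the features given here. Serine at position 4, which the TRAV14 germline encodes, was kept in 113 members, or 71.1% (63.4 to 78.0), and in 51 shared CDR3α, or 75% (63.0 to 84.7). An acidic residue (D or E) between position 5 and the J end was found in 42 members, or 26.4% (19.7 to 34.0), and in 10 shared CDR3α, or 14.7% (7.28 to 25.4). Alanine was the commonest residue at position 5 in both, at 18.2% (12.6 to 25.1) of members and 22.1% (12.9 to 33.8) of shared CDR3α.

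CD4 SP cells with a member lay mostly in clusters 1 and 2, as CD4 SP cells in general did, with more of them in cluster 1 than among other CD4 SP cells. The authors' clusters are numbered from 0 to 14 and are kept as numbers. Clusters 1 and 2 held 461 of 583 member cells, or 79.1% (75.5 to 82.3), against 76.6% (72.9 to 80.1) of cells with a shared CDR3α and 75.1% (71.7 to 78.2) of CD4 SP cells with any other CDR3α. Cluster 1 alone held 44.1% (40.01 to 48.2) of member cells, 38.5% (34.4 to 42.7) of cells with a shared CDR3α and 33.2% (29.8 to 36.8) of the others. Cluster 0 held 4.80% (3.21 to 6.87) of member cells, 6.47% (4.58 to 8.86) of cells with a shared CDR3α and 9.58% (7.51 to 12.0) of the others. Cluster 11 held 8.06% (5.98 to 10.6) of member cells, 5.04% (3.37 to 7.20) of cells with a shared CDR3α and 3.38% (2.18 to 4.99) of the others. In all 3 clusters the intervals of member cells and of the others did not overlap, while those of member cells and of cells with a shared CDR3α did. The 710 other cells each carried a CDR3α seen in no other CD4 SP cell, while the 583 member cells came from 159 sequences. Of 257 member cells in cluster 1, 19 were of rank 2, and of 47 in cluster 11, 7 were of rank 1 and 5 of rank 2. The intervals treat cells of 1 sequence as separate, and equal weight per sequence was not applied here.

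Among CD25+ TRP cells, those with a member lay more in clusters 1 and 2, which hold most CD4 SP cells, and less in clusters 5 and 7. Of 226 CD25+ TRP cells with a member, 125 were in clusters 1 and 2, or 55.3% (48.6 to 61.9), against 38.0% (33.4 to 42.7) of 437 cells with a shared CDR3α and 26.0% of 1120 cells with any other. In clusters 5 and 7 were 46 of the 226, or 20.4% (15.3 to 26.2), against 40.5% (35.9 to 45.3) of cells with a shared CDR3α and 52.4% of the others. With every sequence given equal weight, the means in clusters 1 and 2 were 52.9% for the 89 members and 40.2% for the 64 shared CDR3α found in CD25+ TRP, and those in clusters 5 and 7 were 22.8% and 36.7%. Among sequences in 9 or fewer CD4 SP cells, clusters 1 and 2 held 52.6% (44.4 to 60.6) of cells with a member and 30.7% (25.1 to 36.6) of those with a shared CDR3α. For clusters 5 and 7 the shares were 24.4% (17.9 to 31.9) with a member and 49.0% (42.8 to 55.3) with a shared CDR3α. With equal weight per sequence, the means in clusters 1 and 2 at 2 CD4 SP cells were 51.5% for members and 23.1% for shared CDR3α. At 3 cells they were 52.8% and 47.2%, and at 4 cells 55% and 55.6%. From 5 to 9 cells they were 44.4% and 34.4%, and at 10 or more 64.9% and 58.1%. The gap in clusters 1 and 2 was thus widest at 2 cells. In clusters 5 and 7 the member mean was lower in every class but 5 to 9 cells, at 34.7% against 32.3%. The rule chose members and shared CDR3α by their CD4 SP and Treg cells. The other cells carried a CDR3α found in no more than 1 CD4 SP cell. How far this choice sets the cluster shares was not tested.

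In Foxp3lo TRP, cluster 0 held 33 of 76 cells with a member, or 43.4% (32.1 to 55.3), against 56.4% (49.5 to 63.0) of cells with a shared CDR3α. Clusters 1 and 2 held 14 of the 76, or 18.4% (10.5 to 29.0), against 10.9% (7.12 to 15.8) of cells with a shared CDR3α, and both pairs of intervals overlap. Of the other Foxp3lo TRP cells 55.7% (51.3 to 60.1) were in cluster 0 and 6.69% (4.68 to 9.23) in clusters 1 and 2, where the interval lies below that of member cells. Of 73 DP cells with a member, 65 were in clusters 4, 6 and 8, or 89.0% (79.5 to 95.1), against 85.9% (76.2 to 92.7) of 78 DP cells with a shared CDR3α. Cluster 6 alone held 49 of the 73, or 67.1% (55.1 to 77.7), against 70.5% (59.1 to 80.3) of those with a shared CDR3α and 42.7% (39.8 to 45.7) of the other DP cells. Clusters 1 and 2 held 6 of the 73 DP cells. In Foxp3lo TRP and DP too, the 3 kinds of cell were set apart by CD4 SP and Treg counts. How far this sets their cluster shares was not tested.

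**Figure D5:**
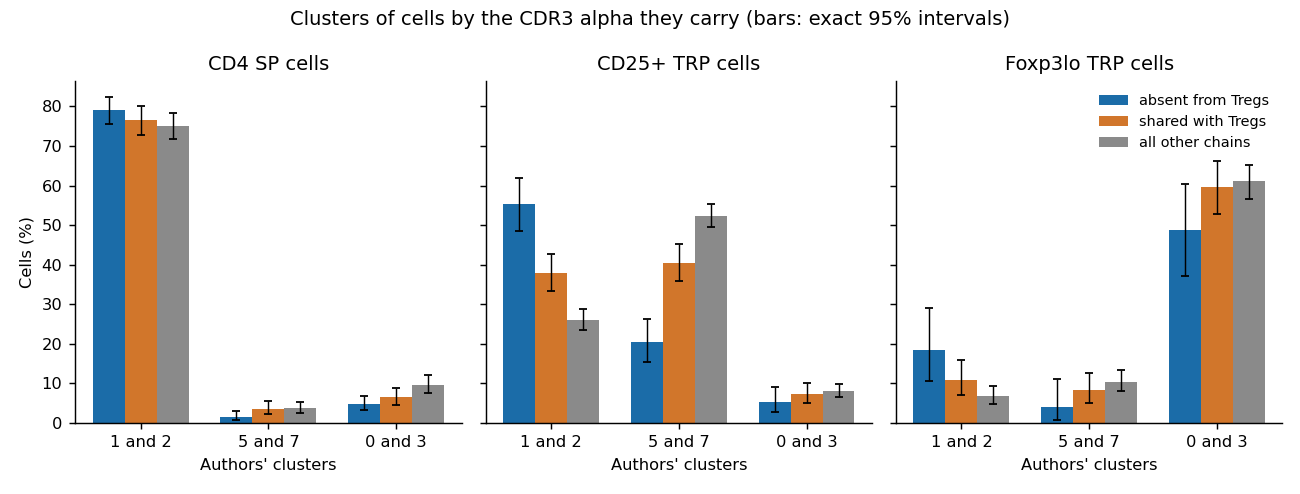
Share of CD4 SP, CD25+ TRP and Foxp3lo TRP cells in 3 pairs of the authors' clusters (y axis, %, with exact 95% intervals), for cells with a member (blue), a sequence shared with Tregs (orange) or any other CDR3α (grey). In CD25+ TRP members stand at 55.3% and 20.4% and shared sequences at 38.0% and 40.5%, while in CD4 SP clusters 1 and 2 hold 79.1%, 76.6% and 75.1% of the 3 kinds of cell.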

How the data were processed

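The submitters made gene expression, hashtag and TCRα-enriched 10x Genomics libraries from the same cells, per the labels' protocols. The tools in the submitters' processing notes are Seurat 3.1.1 and Cell Ranger 3.1.0, and the builds are GRCm38 and mm10, with no step assigned. The authors deposited RNA counts (UMIs) for 14790 gene rows and 12208 cells, read and UMI counts per TCR contig with V gene, J gene and CDR3, and a table of the hashtag population and cluster of each cell. The hashtag class named Treg was read as CD73- Treg. That table carries no barcodes, so its rows were taken to be in the order of the matrix columns, and contigs were joined by the matrix barcodes. Under this order the clonotype name matched for 6982 of 6982 cells with exactly 1 productive α chain. The 330 cells with 2 or more were left out.

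Counting, exact intervals and figures were made with python 3.11.15, pandas 2.3.3, scipy 1.17.1 and matplotlib 3.10.9, and tested on simulated data. Germline V ends, J segments and coordinates came from GENCODE (GRCm38), where 45 of 45 segments were found. An inserted base is an exact mismatch to both ends, so allelic differences would raise the count. How doublets were handled is not given in the sources used here. Members and lists were chosen with earlier results of these data known. Sequences were named by size, spread over populations, number of rearrangements and length, and segments by number of members and by distance from the shared set.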

Additional observations from a re-analysis of the deposited data

How the results depend on the processing

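The 11 summary results were recomputed under 12 alternatives, and 116 of 130 values stayed within the interval of the value reported or, for counts, within 1.5 times. Keeping TRAV14 contigs only, or contigs with 2 or more UMIs only, gave 159 members each. Every member used TRAV14 and no CD4 SP contig had under 2 UMIs, so these alternatives could move little. With a minimum of 3 CD4 SP cells there were 75 members, carried by 22.4% of CD4 SP cells, with 73.3% also in CD25+ TRP and 90.7% with 2 or more rearrangements. Leaving out cells in clusters under 5% of their population gave 38.3% of CD4 SP cells with a member, 94.6% of those cells in clusters 1 and 2, and 66.1% and 28.0% of CD25+ TRP member cells in clusters 1 and 2 and in 5 and 7. Requiring absence from Foxp3lo TRP as well gave 112 members, a count within the 1.5 times allowed, carried by 17.6% of CD4 SP cells. Leaving cluster 9 out of the CD73+ Tregs gave 163 members, carried by 32.8% of CD4 SP cells. Cluster 9 held 536 of all 2401 CD73+ Treg cells and no CD73- Treg or CD4 SP cell. With the nucleotide sequence and V and J gene in place of the amino acid sequence, 16.2% of members were also in Foxp3lo TRP, 15.6% in DP, and 62.3% of CD25+ TRP member cells were in clusters 1 and 2. Alternatives chosen after seeing the data gave 22.9% of CD4 SP cells without members of 10 or more CD4 SP cells, and 86.4% of CD4 SP member cells in clusters 1 and 2 without cluster 11. Depth limits the absence from Tregs, since the share that 0 of 1280 cells allows is exceeded by the CD4 SP share of 24 members. The lower limit of the CD4 SP share exceeds it only for the 10 members in 10 or more CD4 SP cells. For no member does that lower limit exceed the 1.35% that 0 of the CD73- Tregs alone allows. The cluster results for CD25+ TRP were themselves added after seeing the data. No paired analysis was possible because each population was 1 sorted sample from 1 pool.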
